A study of Homo sapiens with 31 samples.

Results

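The 37 genes described here code for the glycolytic pathway and for the response of cells to low oxygen. They were picked by gene symbol from the 19221 genes of an RNA sequencing table of human cell lines studied as ovarian cancer. All 37 symbols were found. They hold 2 glucose carriers, 16 enzymes from hexokinase to pyruvate kinase, 2 regulators of phosphofructokinase, 5 genes of lactate and pyruvate handling, the 2 alpha subunits HIF1A and EPAS1, and 10 further targets of the hypoxia-inducible factors (HIF). RNA was sequenced in 31 libraries of 4 groups, made with a kit for mRNA libraries. A2780 (n = 8) is an ovarian carcinoma line, listed as untreated. A2780 OlaR (n = 8) was derived from it by growth in rising amounts of olaparib, an inhibitor of the repair enzyme PARP, until the strain was resistant, and is listed as treated with olaparib. C13* is a cisplatin-resistant line that the study used as ovarian cancer. The paper counts the origin of C13* among the weaknesses of its cell line models. C13* carried a control short hairpin RNA in the C13* shCON group (n = 7, labelled as before knockdown) and a hairpin against CEBPB, delivered by lentivirus, in the C13* shCEBPB group (n = 8). CEBPB codes for the transcription factor C/EBP beta. Culture medium and serum were the same for all groups, and no group was labelled as kept at low oxygen. The methods call the libraries of a group biological replicates and do not say how their cultures were separated, so the tests measure the spread between these libraries.

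Glycolysis splits glucose into pyruvate, and lactate dehydrogenase turns pyruvate into lactate, which leaves the cell through monocarboxylate carriers, while pyruvate dehydrogenase kinases hold back the entry of pyruvate into mitochondria. Most steps can be run by several isozymes from separate genes, and tumours often express the forms with high flux. When oxygen is short, prolyl hydroxylases of the EGLN family stop marking HIF alpha subunits for destruction, and the stabilised factor binds a short core motif near genes of glucose uptake, glycolysis, pH control and vessel growth. HIF alpha subunits are regulated mainly as proteins, so the levels of their transcripts are not a measure of HIF activity.

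Values are FPKM, fragments scaled by transcript length and by the number of mapped fragments, so that genes can be set side by side within a library. Comparison between libraries also depends on the scaling. In A2780 OlaR against A2780 the median log2 difference of all genes tested was -0.12. It was -0.18 after scaling to a common sum and -0.04 with median ratio scaling. The 31 libraries summed to between 417556 and 454578 FPKM, and their relative depth, read from the smallest values above 0, differed by at most 1.42 times. CEBPB lay between 75.2 and 101 FPKM in C13* shCON and between 30.2 and 58.7 FPKM in C13* shCEBPB, without overlap. The lines stood apart far beyond the targeted gene. Across 13470 genes, the correlation of log2(FPKM + 1) between an A2780 OlaR and a C13* shCON library was 0.982 to 0.992, which overlaps the range within groups (0.982 to 0.998). It was 0.724 to 0.734 between A2780 OlaR and A2780, and 0.793 to 0.807 between C13* shCON and C13* shCEBPB. For the 37 members these ranges were 0.992 to 0.997, 0.692 to 0.725 and 0.893 to 0.919 in the same order. These correlations are across genes, which share library and depth, and they are given as a description. Cell type markers also differed between the groups. The 9 squamous epithelium markers summed to 3106 to 4004 FPKM in A2780 OlaR and 3293 to 3888 FPKM in C13* shCON, against 1.47 to 3.46 FPKM in A2780 and 221 to 527 FPKM in C13* shCEBPB. In C13* shCEBPB this sum was carried by KRT17 (mean 250 FPKM) and SFN (mean 129 FPKM). Only these 2 of the 9 markers had a mean of at least 1 FPKM there. A2780 also had 2 such markers, but only just above that level, SFN (mean 1.19 FPKM) and COL17A1 (mean 1.17 FPKM). KRT5, a basal keratin, was listed at 0 in all A2780 libraries. The 5 haematopoietic markers summed to 76.5 to 103 FPKM in A2780, nearly all of it PTPRC, and to at most 2.23 FPKM in any other library. The 7 Muellerian markers of ovarian carcinoma summed to 14.9 to 41.9 FPKM over the A2780, A2780 OlaR and C13* shCON libraries and to 998 to 1104 FPKM in C13* shCEBPB. That sum was carried by FOLR1 (mean 887 FPKM) and MSLN (mean 154 FPKM). The lineage factors PAX8 and WT1 were lower in C13* shCEBPB (means 0.536 and 0.0232 FPKM) than in C13* shCON (6.1 and 0.819 FPKM). SOX17 and MUC16 of the same list were higher in C13* shCEBPB (means 1.83 and 0.604 FPKM) than in C13* shCON (0 and 0.104 FPKM). The part of these marker differences in the results below was not tested. The treatment or hairpin of a group cannot be told apart from the other differences between these lines. Whether the A2780 OlaR and C13* shCON libraries hold the lines their labels name, or were exchanged with others, was not tested, and every comparison below follows the labels as given. In addition, C13* shCON replicate 1 has A2780 in its cell line field, and leaving it out changed no member's call. In bulk libraries, fewer cells expressing a gene and less RNA per cell cannot be told apart.

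Core motifs of HIF, ACGTG on either strand, were searched in the 250 bases before the most upstream start of each gene in RefSeq (GRCh38.p14), to show which members carry such letters close to their start. Of the 37 members, 33 had an entry, and SLC2A3, SLC16A1, NDRG1 and VEGFA had none. ACGTG was present in 13 of the 33 members (39.4%), against 18.6% of 27305 genes. These were all genes with an entry, whether or not they were expressed here. The variant GCGTG, which can lie beside ACGTG but cannot match at the same position of a strand, was present in 13 of 33 (39.4%), against 31.9%. A match is a run of letters and does not show binding. The windows below surround the ACGTG nearest to the start in 6 members that differed in their response, with ACGTG or its reverse complement CACGT in capitals. Both strands of the palindrome CACGTG hold the core, so that a run of 6 capitals is an overlapping pair.

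CA9 promoter, chr9:35673885-35673927, plus strand: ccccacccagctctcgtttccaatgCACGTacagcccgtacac
BNIP3 promoter, chr10:131982027-131982081, minus strand: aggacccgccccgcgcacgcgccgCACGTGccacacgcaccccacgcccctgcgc
P4HA1 promoter, chr10:73096923-73096977, minus strand: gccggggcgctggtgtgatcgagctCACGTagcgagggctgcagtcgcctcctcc
ENO2 promoter, chr12:6914437-6914491, plus strand: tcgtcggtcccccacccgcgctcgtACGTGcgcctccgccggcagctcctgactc
PGK1 promoter, chrX:78104040-78104094, plus strand: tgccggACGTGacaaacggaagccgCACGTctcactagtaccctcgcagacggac
LDHA promoter, chr11:18394465-18394519, plus strand: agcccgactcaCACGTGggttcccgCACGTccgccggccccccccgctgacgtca

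The 6 genes were picked to show both directions. In C13* shCEBPB against C13* shCON, CA9, BNIP3, P4HA1 and ENO2 were lower while PGK1 and LDHA were higher. Of the 13 members with ACGTG, 4 were higher and 9 lower in that comparison (median log2 difference -0.39), and of the 20 members whose window lacks it, 8 were higher and 9 lower (median -0.08). Of all genes tested, 38.9% were higher and 45.7% lower. In A2780 OlaR against A2780 the counts were 9 higher and 4 lower with the core (median 0.75) and 15 higher and 5 lower without it (median 0.76). There 40.1% of all genes tested were higher and 49.7% lower. Calls were not counted for all genes with ACGTG, so a link between the motif and direction was not tested.

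Each comparison was tested with limma on log2(FPKM + 1), and a gene was called at an adjusted p under 0.05. Differences on this scale understate the change of low genes. In C13* shCEBPB against C13* shCON, the knockdown comparison of the study, 36 members passed the filter of 1 FPKM. Below, the words "with the hairpin" name this comparison, not an effect told apart from other differences between the groups. Of these, 13 were higher and 19 lower, so 32 were called. Of the 12006 genes tested, 84.7% were called, 38.9% higher and 45.7% lower. HK1, PFKL, TPI1 and SLC16A1 were not called, and SLC2A3 was not tested. The share of members called is therefore near that of all genes. In 26 tested members every library of C13* shCEBPB lay to the same side of all C13* shCON libraries, as it did for 66.0% of all genes tested. At least a 2-fold difference was seen in 5 higher and 6 lower members, where 12.7% of all genes were higher by that much, 16.7% lower and 29.5% either. The members' median was -0.17, beside -0.07 for all genes tested.

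In A2780 OlaR against A2780, the olaparib resistance comparison of the study, all 37 members were tested and called, 26 higher and 11 lower. This was against a background of 89.8% of 12458 genes called, with 40.1% higher and 49.7% lower. At least a 2-fold difference was seen in 15 higher and 5 lower members, where 15.5% of all genes were higher by that much, 20.1% lower and 35.7% either. Libraries did not overlap in 34 members, against 74.1% of all genes. The members' median was 0.75, beside -0.12 for all genes tested.

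**Figure D1:**
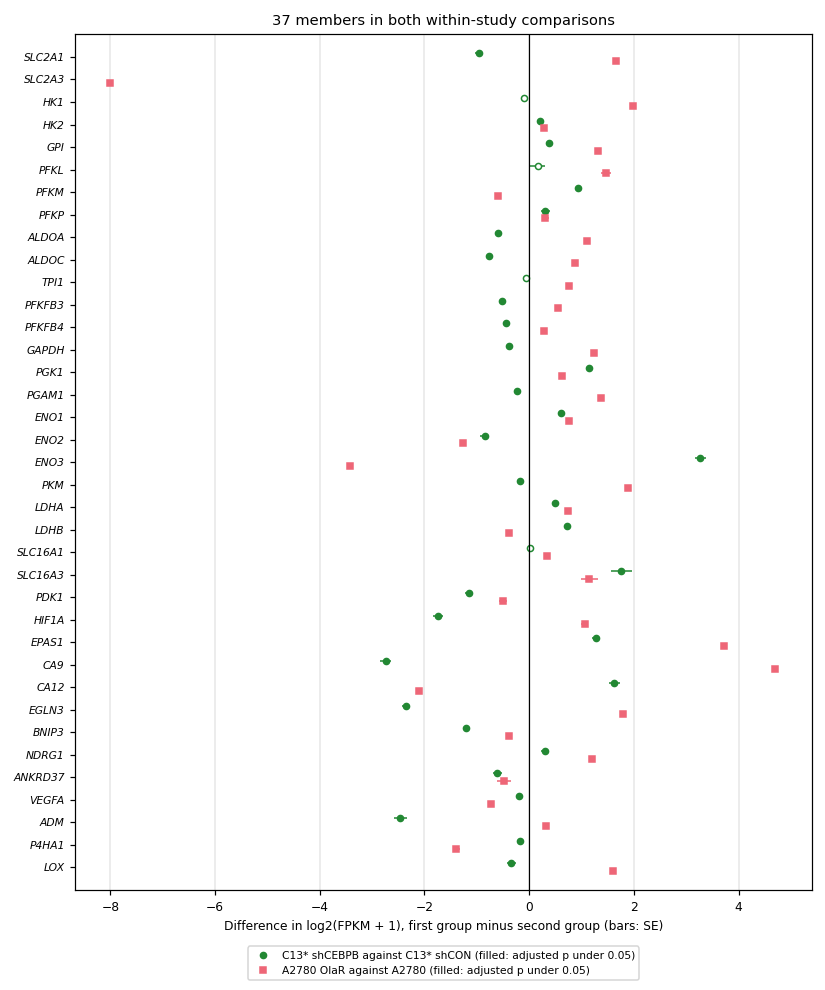
Difference in log2(FPKM + 1) of each member (vertical axis, ordered by role) in C13* shCEBPB against C13* shCON (green circles) and A2780 OlaR against A2780 (red squares), with the standard error as bars and open symbols for members not called. SLC2A3 at -8.0 in A2780 OlaR against A2780 lies far from all others, and 15 members lie left of 0 in green and right of 0 in red, 13 of them called in both.

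The 2 comparisons share no libraries, but they are not independent. A2780 OlaR, the first group of one, and C13* shCON, the second group of the other, correlated at 0.982 to 0.992 across genes. A gene that sets this shared profile apart from both other groups takes opposite signs in the 2 comparisons. The classes below are therefore a description. Members lower with the CEBPB hairpin and higher in A2780 OlaR numbered 13 of the 36 tested in both, where 26.1% of 11603 genes were in this class: SLC2A1, ALDOA, ALDOC, PFKFB3, PFKFB4, GAPDH, PGAM1, PKM, HIF1A, CA9, EGLN3, ADM and LOX. Another 9 were higher in both, as were 10.6% of all genes: HK2, GPI, PFKP, PGK1, ENO1, LDHA, SLC16A3, EPAS1 and NDRG1. PFKP was called in neither comparison when libraries 1 to 3 alone were used (0.04, adjusted p = 0.576 with the hairpin). ENO2, PDK1, BNIP3, ANKRD37, VEGFA and P4HA1 were lower in both, as were 15.9% of all genes. PFKM, ENO3, LDHB and CA12 were higher with the hairpin and lower in A2780 OlaR, as were 23% of all genes. Each class holds glycolytic enzymes as well as HIF targets.

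Glucose enters through facilitative carriers, and transcripts of another carrier gene prevailed in A2780 than in the other 3 groups. SLC2A3 (chr12:7919230-8019007, minus strand, hg38, GENCODE 44) codes for the high-affinity carrier GLUT3, typical of neurons. It ran from 253 to 282 FPKM in A2780 (median 264), from 0.0108 to 0.078 in A2780 OlaR (median 0.0319), from 0.176 to 0.386 in C13* shCON (median 0.266) and from 0.618 to 2.12 in C13* shCEBPB (median 1.2). No library of another group came near A2780, and no 2 groups overlapped. SLC2A3 was lower in A2780 OlaR (log2 difference -8.0, SE 0.03, adjusted p = 8.69e-31), a size that the added 1 FPKM limits. SLC2A1, the widely expressed carrier GLUT1, ran the other way. Its range was 18.6 to 20.9 FPKM in A2780 (median 19.8), 58.4 to 68.9 in A2780 OlaR (median 65.4), 57.1 to 62.8 in C13* shCON (median 59.6) and 25.7 to 35.5 in C13* shCEBPB (median 30.7). Its highest libraries were those of A2780 OlaR and C13* shCON, which overlapped, while A2780 and C13* shCEBPB each stood apart. The difference was 1.65 (SE 0.04, adjusted p = 5.00e-18) in A2780 OlaR against A2780 and -0.96 (SE 0.07, adjusted p = 5.30e-10) in C13* shCEBPB against C13* shCON. SLC2A1 made up 6.94% ± 0.452 (SD, n = 8) of the summed FPKM of both carriers in A2780, 99.9% ± 0.0393 in A2780 OlaR, 99.5% ± 0.151 in C13* shCON and 95.7% ± 2.21 in C13* shCEBPB. The sum itself was 285 ± 8.32 FPKM in A2780 and 64.0 ± 4.38, 60.2 ± 2.07 and 31.9 ± 3.76 FPKM in the other groups in the same order, so the line with the lowest SLC2A1 had the highest total.

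**Figure D2:**
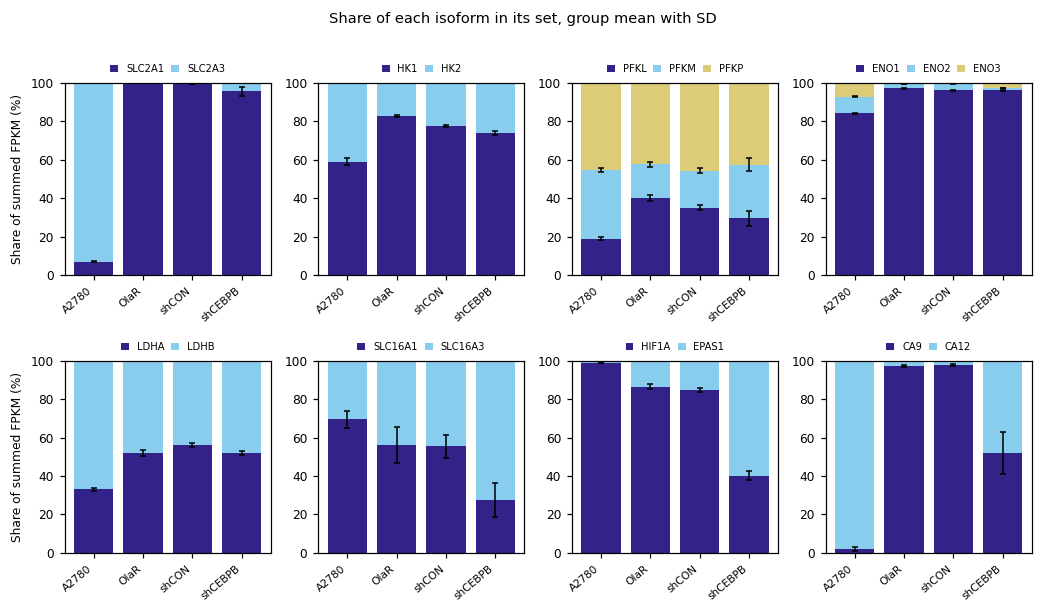
Share of each gene in the summed FPKM of its set (vertical axis, %), as group means with the SD over libraries (n = 8, C13* shCON n = 7), for 8 sets of related genes; OlaR, shCON and shCEBPB stand for A2780 OlaR, C13* shCON and C13* shCEBPB. SLC2A3 and CA12 fill most of their sets in A2780, and EPAS1 is the larger part of HIF alpha transcripts in C13* shCEBPB.

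The 16 enzymes from hexokinase to pyruvate kinase together took 0.88% ± 0.0282 (SD, n = 8) of all FPKM in A2780, 1.78% ± 0.0592 in A2780 OlaR, 1.78% ± 0.0555 in C13* shCON and 1.70% ± 0.0563 in C13* shCEBPB. GAPDH alone accounted for 36.3% to 46.3% of this sum in the group means. A2780 had the lowest mean for 13 of the 16 enzymes. In A2780 OlaR against A2780, 13 enzymes were higher and 3 were lower (PFKM, ENO2 and ENO3), with a median of 0.81, where 40.1% of all genes were higher and 49.7% lower. In C13* shCEBPB against C13* shCON 7 enzymes were higher, 6 lower and 3 not called, with a median of 0.05, where 38.9% of all genes were higher and 45.7% lower.

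Hexokinase traps glucose in the cell. HK1, the constitutive form, ran from 13.4 to 17.2 FPKM in A2780 (median 15.9) and from 51.5 to 69.9 FPKM over all other libraries. It was higher in A2780 OlaR than in A2780 by 1.98 (SE 0.05, adjusted p = 1.45e-18), and its difference between the C13* groups was -0.09 (SE 0.04, adjusted p = 0.0774). HK2, the inducible form linked to tumour glycolysis, differed less, with group means from 10.9 FPKM in A2780 to 20.1 FPKM in C13* shCEBPB and no overlap between any groups compared. HK2 took 40.9% ± 1.63 of the pair in A2780 and 17.2% ± 0.421 in A2780 OlaR. GPI, which converts glucose phosphate to fructose phosphate, was higher in both comparisons (log2 difference 0.37 with the hairpin and 1.32 in A2780 OlaR).

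Phosphofructokinase sets the pace of the pathway, and in A2780 OlaR its muscle form PFKM was lower while the liver form PFKL was higher. PFKM ran from 51.0 to 61.1 FPKM in A2780 (median 57.2), 33.2 to 40.1 in A2780 OlaR (median 38.6), 40.8 to 44.8 in C13* shCON (median 42.4) and 77.5 to 89.6 in C13* shCEBPB (median 82.8). No groups overlapped, with C13* shCEBPB highest and A2780 OlaR lowest. The PFKM difference was 0.94 (SE 0.04, adjusted p = 7.50e-14) with the hairpin and -0.59 (SE 0.04, adjusted p = 1.48e-10) in A2780 OlaR. PFKL was at 30.4 ± 3.31 FPKM in A2780 and 86.7 ± 13.9 FPKM in A2780 OlaR, a difference of 1.47 (SE 0.09, adjusted p = 5.71e-12). Between the C13* groups PFKL differed by 0.16 (SE 0.14, adjusted p = 0.299). PFKP, the platelet form, had the highest mean of the set in each group, with 42.3% to 45.7% of the summed FPKM. PFKFB3 and PFKFB4, which tune phosphofructokinase through its sugar phosphate activator, were both lower with the hairpin (-0.52 and -0.45) and both higher in A2780 OlaR (0.56 and 0.29).

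ALDOA, the main aldolase, ran from 384 to 431 FPKM in A2780 (median 403), 796 to 940 in A2780 OlaR (median 878), 898 to 973 in C13* shCON (median 936) and 550 to 647 in C13* shCEBPB (median 630). Its C13* groups did not overlap, and neither did its A2780 groups. ALDOA and ALDOC, the brain form, were both lower with the hairpin (-0.59 and -0.76) and higher in A2780 OlaR (1.10 and 0.87). TPI1, which interconverts the triose phosphates, was higher in A2780 OlaR by 0.76 and differed by -0.06 (SE 0.05, adjusted p = 0.257) between the C13* groups.

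**Figure D3:**
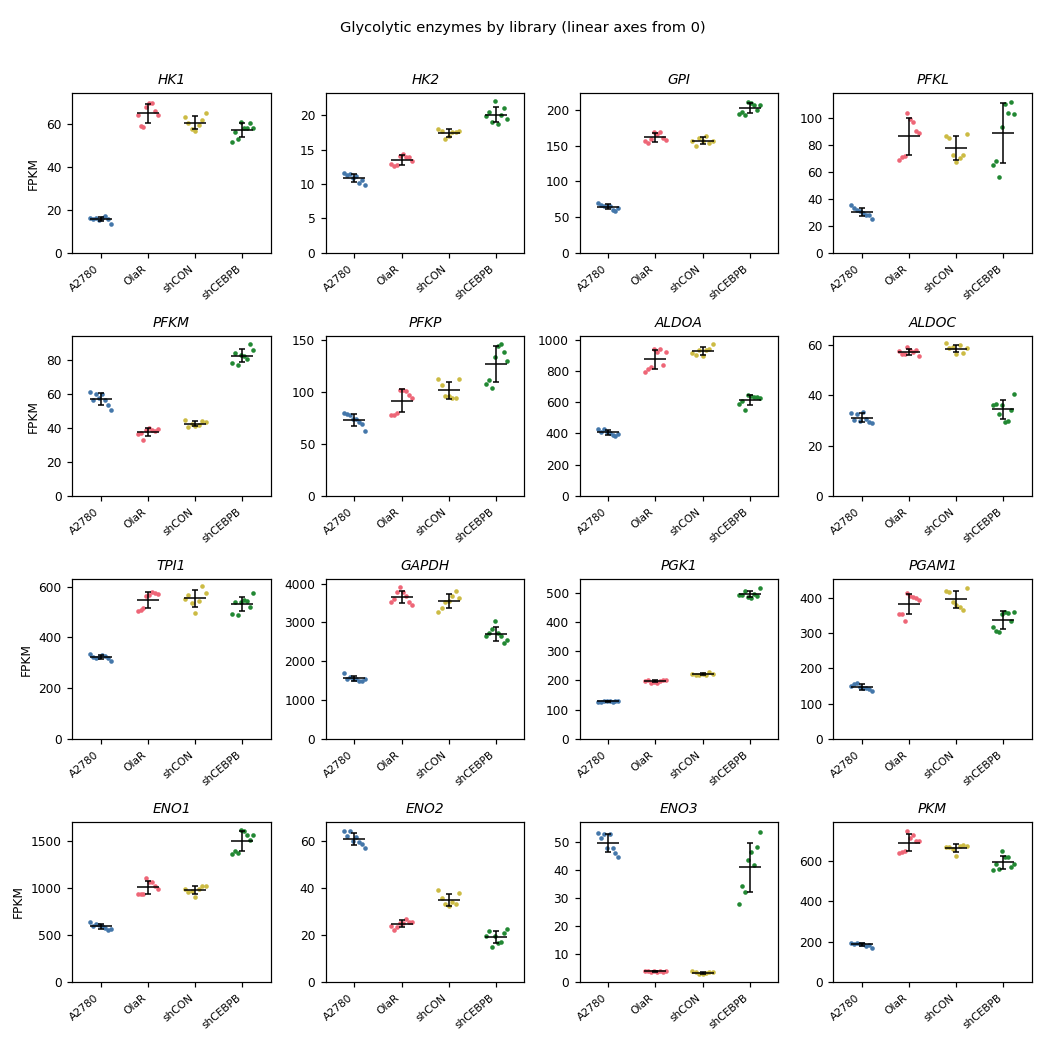
FPKM of the 16 glycolytic enzymes (vertical axes, linear from 0) in each library of the 4 groups, with the group mean as a line and the SD as bars; OlaR, shCON and shCEBPB stand for A2780 OlaR, C13* shCON and C13* shCEBPB. A2780 has the lowest mean in 13 panels, and PFKM, ENO2 and ENO3 are the exceptions.

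Further down the pathway, PGK1 and ENO1 were highest in C13* shCEBPB, while GAPDH and PKM had their highest mean in A2780 OlaR, where they overlapped C13* shCON. GAPDH, which makes the first high-energy phosphate, ran from 1485 to 1704 FPKM in A2780 (median 1542), 3439 to 3908 in A2780 OlaR (median 3644), 3278 to 3796 in C13* shCON (median 3544) and 2477 to 3035 in C13* shCEBPB (median 2688). A2780 lay lowest and C13* shCEBPB between it and the remaining libraries. GAPDH was higher in A2780 OlaR by 1.23 (SE 0.03, adjusted p = 1.41e-17) and lower with the hairpin by 0.39 on the log2 scale (-0.39, SE 0.05, adjusted p = 3.69e-07). PGK1, the first step to yield ATP, ran from 125 to 131 FPKM in A2780 (median 128), 193 to 202 in A2780 OlaR (median 198), 220 to 230 in C13* shCON (median 221) and 484 to 517 in C13* shCEBPB (median 493). All groups stood apart, and the spread within each was small. The PGK1 difference was 1.15 (SE 0.03, adjusted p = 6.10e-17) with the hairpin and 0.62 (SE 0.02, adjusted p = 1.56e-15) in A2780 OlaR. PKM, pyruvate kinase of dividing cells and muscle, had a mean of 186 ± 8.66 FPKM in A2780 against 692 ± 41.9, 666 ± 18.2 and 594 ± 33.2 FPKM in the other groups, and was higher in A2780 OlaR by 1.89 (SE 0.04, adjusted p = 1.62e-19). Its 2 splice forms cannot be separated in values per gene.

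The 3 enolases followed different patterns. ENO3 (chr17:4948092-4957131, plus strand), the muscle enolase, shares 111 exonic bases with PFN1 on the other strand. It ran from 44.7 to 53.0 FPKM in A2780 (median 49.6), 3.44 to 3.89 in A2780 OlaR (median 3.73), 2.76 to 3.74 in C13* shCON (median 3.41) and 27.9 to 53.3 in C13* shCEBPB (median 42.5). High libraries were those of A2780 and C13* shCEBPB, which overlapped, and the low groups overlapped as well. ENO3 was higher with the hairpin by 3.27 (SE 0.11, adjusted p = 8.05e-15) and lower in A2780 OlaR (-3.43, SE 0.04, adjusted p = 2.20e-23). ENO2, the neuronal enolase, was at 61.1 ± 2.60 FPKM in A2780 and between 19.1 and 35.0 FPKM in the other group means. It was lower in both comparisons (-0.85 with the hairpin and -1.27 in A2780 OlaR). ENO1, the common form, made up 84.2% ± 0.379 of enolase FPKM in A2780 and 96.2% to 97.2% elsewhere. ENO1 was higher in both comparisons, by 0.61 with the hairpin and 0.76 in A2780 OlaR, so that the enolase sum was 1556 ± 114 FPKM in C13* shCEBPB against 1016 ± 42.1 FPKM in C13* shCON.

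Lactate dehydrogenase joins A subunits, which favour making lactate, with B subunits, which favour the reverse. LDHA ran from 274 to 300 FPKM in A2780 (median 282), 436 to 520 in A2780 OlaR (median 471), 592 to 632 in C13* shCON (median 616) and 771 to 1034 in C13* shCEBPB (median 852). No groups overlapped. LDHA was higher by 0.50 (SE 0.06, adjusted p = 1.60e-07) with the hairpin and by 0.75 (SE 0.04, adjusted p = 8.34e-14) in A2780 OlaR. LDHB was higher with the hairpin (0.73) and lower in A2780 OlaR (-0.39). LDHA took 33.0% ± 0.633 of the pair in A2780 and 52.0% to 56.0% in the other group means, the sum being 1680 ± 162 FPKM in C13* shCEBPB and 863 ± 28.6 FPKM in A2780.

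Lactate leaves through MCT1, coded by SLC16A1, and the export form MCT4, coded by SLC16A3. SLC16A1 had group means between 45.8 and 61.2 FPKM and differed by 0.02 (SE 0.05, adjusted p = 0.763) between the C13* groups. SLC16A3 shares 482 exonic bases with CSNK1D on the other strand. It ran from 14.7 to 25.1 FPKM in A2780 (median 19.4), 29.8 to 61.5 in A2780 OlaR (median 52.1), 35.0 to 60.3 in C13* shCON (median 46.3) and 91.8 to 232 in C13* shCEBPB (median 198). The C13* shCEBPB libraries were highest and did not overlap any other group, with an SD of 54.5 FPKM around a mean of 174 FPKM. SLC16A3 was higher by 1.76 (SE 0.20, adjusted p = 1.78e-07) with the hairpin and by 1.15 (SE 0.16, adjusted p = 1.22e-06) in A2780 OlaR. Its share of both carriers was 44.5% ± 5.97 in C13* shCON and 72.4% ± 8.96 in C13* shCEBPB.

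PDK1, a HIF target that inhibits pyruvate dehydrogenase, was lower in both comparisons. It ran from 11.0 to 14.4 FPKM in A2780 (median 12.1), 7.05 to 10.6 in A2780 OlaR (median 8.11), 9.55 to 12.7 in C13* shCON (median 11.7) and 3.85 to 5.82 in C13* shCEBPB (median 4.25). C13* shCEBPB lay below all other libraries. The PDK1 difference was -1.15 (SE 0.08, adjusted p = 3.86e-10) with the hairpin and -0.50 (SE 0.07, adjusted p = 4.05e-06) in A2780 OlaR. Among 18 tested genes around it, those of pyruvate entry and lactate carriage, 9 were higher and 6 lower with the hairpin, beside 38.9% and 45.7% of all genes. PDK4, the kinase form induced by fasting, was at 54.6 to 121 FPKM in C13* shCEBPB and at most 0.0585 FPKM in any other library, with 0 in all of A2780 OlaR. PDK3 had a mean of 0.533 ± 0.0986 FPKM in C13* shCEBPB and 10.5 ± 0.549 FPKM in C13* shCON. EMB, embigin, which helps place monocarboxylate carriers in the membrane, lay between 28.3 and 34.9 FPKM in C13* shCON and was listed at 0 in all C13* shCEBPB libraries. PDHA1, the catalytic subunit of pyruvate dehydrogenase, was higher by 1.49 with the hairpin.

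The 2 HIF alpha genes moved in opposite directions between the C13* groups. HIF1A (chr14:61695513-61748259, plus strand), which shares 432 exonic bases with antisense genes on the other strand, ran from 63.0 to 72.8 FPKM in A2780 (median 65.9), 124 to 163 in A2780 OlaR (median 134), 130 to 158 in C13* shCON (median 137) and 35.0 to 53.9 in C13* shCEBPB (median 37.7). A2780 OlaR and C13* shCON were highest and overlapped, and C13* shCEBPB was lowest. HIF1A was lower with the hairpin (-1.74, SE 0.09, adjusted p = 1.23e-12) and higher in A2780 OlaR by 1.06 (SE 0.06, adjusted p = 2.33e-12). EPAS1 (chr2:46293667-46386697, plus strand), the alpha subunit known from endothelium and kidney tumours, ran from 0.614 to 0.825 FPKM in A2780 (median 0.714), 20.5 to 22.9 in A2780 OlaR (median 21.5), 23.6 to 26.0 in C13* shCON (median 24.8) and 53.2 to 74.5 in C13* shCEBPB (median 59.2). No groups overlapped. EPAS1 was higher by 1.27 (SE 0.07, adjusted p = 6.45e-12) with the hairpin and by 3.72 (SE 0.04, adjusted p = 6.64e-25) in A2780 OlaR. It made up 1.06% ± 0.104 of the alpha transcripts in A2780, 13.4% ± 1.15 in A2780 OlaR, 15.1% ± 1.06 in C13* shCON and 59.8% ± 2.52 in C13* shCEBPB.

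**Figure D4:**
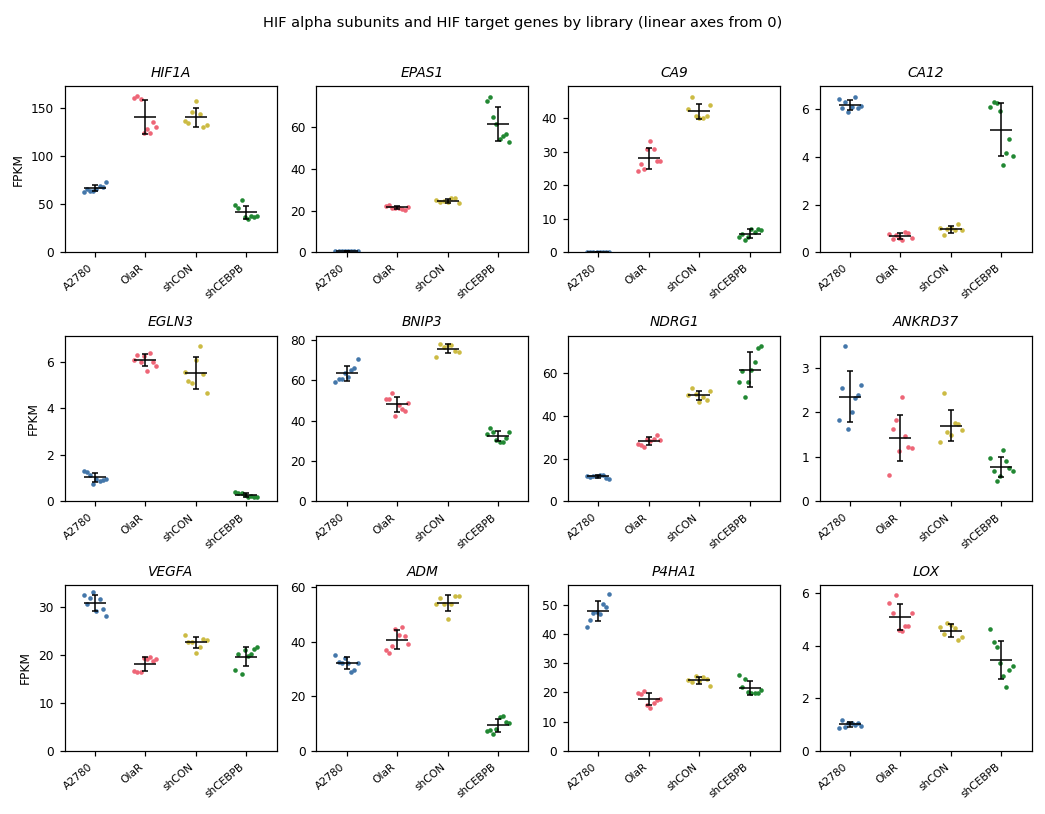
FPKM of the 2 HIF alpha subunits and 10 HIF targets (vertical axes, linear from 0) in each library of the 4 groups, with the group mean as a line and the SD as bars; OlaR, shCON and shCEBPB stand for A2780 OlaR, C13* shCON and C13* shCEBPB. HIF1A is lowest and EPAS1 highest in C13* shCEBPB, where CA9, EGLN3, BNIP3 and ADM lie below all C13* shCON libraries.

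Of the 10 HIF targets outside glycolysis, 8 were lower and 2 higher in C13* shCEBPB against C13* shCON (median -0.47), where 45.7% of all genes were lower. In A2780 OlaR against A2780, 5 were higher and 5 lower (median -0.03), where 40.1% of all genes were higher. Both alpha genes were higher there.

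The carbonic anhydrases of the cell surface, which control pH outside the cell, differed in their balance between groups. CA9 (chr9:35673928-35681159, plus strand), often used as a marker of hypoxia, shares 571 exonic bases with ARHGEF39 on the other strand. It ran from 0.019 to 0.199 FPKM in A2780 (median 0.128), 24.3 to 33.2 in A2780 OlaR (median 27.3), 40 to 46.2 in C13* shCON (median 40.7) and 3.58 to 6.97 in C13* shCEBPB (median 5.68). No groups overlapped. The CA9 difference was -2.74 (SE 0.11, adjusted p = 3.28e-14) with the hairpin and 4.70 (SE 0.06, adjusted p = 6.28e-23) in A2780 OlaR. CA12 ran from 5.90 to 6.52 FPKM in A2780 (median 6.11), 0.527 to 0.829 in A2780 OlaR (median 0.66), 0.702 to 1.17 in C13* shCON (median 0.961) and 3.66 to 6.31 in C13* shCEBPB (median 5.33). It was high where CA9 was low, in A2780 and C13* shCEBPB, which overlapped. CA12 was higher by 1.63 (SE 0.10, adjusted p = 3.21e-11) with the hairpin and lower in A2780 OlaR (-2.10, SE 0.04, adjusted p = 1.14e-19).

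EGLN3, the prolyl hydroxylase that HIF itself induces, ran from 0.772 to 1.31 FPKM in A2780 (median 0.963), 5.61 to 6.38 in A2780 OlaR (median 6.05), 4.64 to 6.66 in C13* shCON (median 5.46) and 0.177 to 0.414 in C13* shCEBPB (median 0.256). The low groups lay wholly below the high ones. Its difference was -2.35 (SE 0.07, adjusted p = 2.27e-16) with the hairpin and 1.80 (SE 0.05, adjusted p = 2.71e-17) in A2780 OlaR. ADM, the vessel-dilating peptide adrenomedullin, ran from 28.9 to 35.3 FPKM in A2780 (median 32.4), 36.0 to 45.5 in A2780 OlaR (median 40.7), 48.6 to 57.0 in C13* shCON (median 53.8) and 6.33 to 12.6 in C13* shCEBPB (median 9.06). All groups stood apart, with C13* shCEBPB lowest. ADM differed by -2.46 (SE 0.12, adjusted p = 8.61e-13) with the hairpin and by 0.33 (SE 0.05, adjusted p = 7.78e-06) in A2780 OlaR.

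BNIP3, a mitophagy receptor for which the annotation names 44 pseudogenes, was at 63.5 ± 3.75 FPKM in A2780, 48.2 ± 3.68 in A2780 OlaR, 75.8 ± 2.38 in C13* shCON and 32.5 ± 2.56 in C13* shCEBPB. It was lower with the hairpin (-1.20, SE 0.05, adjusted p = 5.31e-14) and in A2780 OlaR (-0.39, SE 0.05, adjusted p = 2.37e-07). P4HA1, a collagen prolyl hydroxylase, and VEGFA, the vessel growth factor, were highest in A2780, at 47.7 ± 3.43 and 30.7 ± 1.72 FPKM. Both were lower in A2780 OlaR (-1.39 and -0.73), and lower by less with the hairpin (-0.17 and -0.20), calls that some alternatives did not keep. LOX, which cross-links collagen, was at 1.0 ± 0.0979 FPKM in A2780 and 5.10 ± 0.507 FPKM in A2780 OlaR (1.60, SE 0.05, adjusted p = 9.16e-17). NDRG1, a stress gene of differentiating epithelium, was higher in both comparisons, by 0.30 and 1.20, and with the hairpin it was not called in libraries 1 to 3 alone (0.11, adjusted p = 0.216). ANKRD37 stayed at or below 3.49 FPKM in every library and shares 909 exonic bases with UFSP2.

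A2780 OlaR and C13* shCON, labelled as derived from different lines, differed little in these genes. Between them 15 of 35 tested members were higher in C13* shCON and 1, ENO3, was lower (-0.14, adjusted p = 0.0428), a call that several alternatives did not keep. Of 11547 genes 42.2% were called, 22.9% higher and 19.3% lower. No tested member differed by 2-fold or more, where 0.372% of all genes were higher and 0.217% lower by that much (0.589% in all). Libraries did not overlap in 12 tested members, against 16.6% of all genes. The members higher in C13* shCON included 6 of the 9 tested HIF targets: NDRG1 (0.79), BNIP3 (0.64), CA9 (0.57), P4HA1 (0.44), ADM (0.41) and VEGFA (0.30). HK2, LDHA, ENO2 and PGK1 were higher as well, by 0.35, 0.36, 0.49 and 0.17. In the wider list of 45 HIF targets, 22 of 36 tested were higher and 3 lower, where 22.9% and 19.3% of all genes were, led by ANGPTL4 at 38.8 ± 2.87 against 6.01 ± 1.01 FPKM. Both groups also enter the comparisons above, so these values are not independent of them.

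A2780 and C13* shCEBPB, the groups with the lower squamous marker sums, were also compared. Of 36 tested members, 23 were higher and 11 lower in C13* shCEBPB. PFKFB3 and PFKFB4 were not called and EGLN3 was not tested. Of 12234 genes 88.9% were called, 37.4% higher and 51.5% lower. In 31 tested members the libraries did not overlap, against 72.3% of all genes. At least a 2-fold difference was seen in 13 higher and 5 lower members, where 15.5% of all genes were higher by that much, 23.0% lower and 38.5% either. The median of all genes in this comparison was -0.18, and -0.06 after quantile normalization. EPAS1 (5.19), SLC16A3 (3.0), CA9 (2.54) and NDRG1 (2.29) were highest above A2780, and SLC2A3 (-6.89) lowest. Of the glycolytic enzymes 14 were higher and 2 lower, ENO2 at -1.64 and ENO3 at -0.30, where 37.4% of all genes were higher. The call of ENO3 was lost with median ratio scaling (-0.19, adjusted p = 0.107) and that of ALDOC (0.14) in 5 alternatives.

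Genes next to these members in the same pathways moved in both directions. Of 20 tested genes of other glycolytic isozymes and hexose handling, 9 were higher and 8 lower with the hairpin, beside 38.9% and 45.7% of all genes. GALM, which readies galactose and glucose for their kinases, was at 9.46 ± 0.634 FPKM in C13* shCEBPB and at most 0.142 FPKM in C13* shCON, and SLC2A10 was listed at 0 in 7 of 8 C13* shCEBPB libraries and lay between 2.68 and 3.46 FPKM in C13* shCON. Among 14 tested genes of oxygen sensing, 8 were higher and 2 lower with the hairpin, against the same shares of all genes. They were led by EGLN1, the main oxygen sensor, at 36.7 ± 9.23 against 8.92 ± 0.589 FPKM (log2 difference 1.89). In A2780 OlaR against A2780 the same list held 3 higher and 9 lower genes, beside 40.1% and 49.7% of all genes. CITED2, a HIF target that blocks binding of HIF to its coactivator, fell from 645 ± 20.6 FPKM in A2780 to 32.7 ± 1.53 FPKM in A2780 OlaR (log2 difference -4.26). CREBBP, such a coactivator, was also lower (-2.35).

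Of 38 tested further HIF targets, 11 were higher and 21 lower with the hairpin (median -0.28), where 38.9% of all genes were higher and 45.7% lower. The lower genes included ZNF395 (-2.54), ANGPTL4 (-2.20) and STC2 (-1.99), and the higher ones PPP1R3C (2.38), EDN1 (1.65) and CXCR4 (1.32). In A2780 OlaR against A2780, 15 were higher and 21 lower (median -0.36), where 40.1% of all genes were higher and 49.7% lower. PLOD2, which hydroxylates collagen, was at 25.6 ± 3.53 FPKM in A2780 OlaR and 0.539 ± 0.148 FPKM in A2780. PPP1R3C (-2.78), CP (-2.36) and IGFBP3 (-2.27) were among the genes lower in A2780 OlaR. Of 12 tested genes in the branches that leave glycolysis, 6 were higher and 4 lower in A2780 OlaR against A2780. Of all genes, 40.1% were higher and 49.7% lower. TKT of the pentose phosphate pathway was higher in A2780 OlaR than in A2780 by 2.20, and SHMT1 of the serine branch by 1.67. PSAT1, PSPH and PHGDH of serine synthesis were all lower there (-2.30, -2.17 and -1.12).

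Within groups, libraries numbered 1 to 3 in their codes differed from those numbered 4 to 8. Their values did not overlap in 24 of 37 members in A2780 OlaR and in 21 in C13* shCEBPB, where 58.1% and 54.4% of all genes did not overlap. The counts were 12 members in A2780 (21.1% of genes) and 2 in C13* shCON (4.76% of genes). What the numbers stand for is not given in the sources used here. SLC16A3 had a mean of 111 FPKM in libraries 1 to 3 and 212 FPKM in libraries 4 to 8 of C13* shCEBPB, and 31.2 and 56.7 FPKM in A2780 OlaR. PFKL had means of 63.3 and 105 FPKM in C13* shCEBPB. In libraries 1 to 3 alone PFKL was lower with the hairpin (-0.36, adjusted p = 0.00463), and in libraries 4 to 8 it was higher (0.48, adjusted p = 4.01e-05). PFKP was higher in A2780 OlaR than in A2780 by 0.50 in libraries 4 to 8 (adjusted p = 7.40e-08), and in libraries 1 to 3 the difference was -0.00 (adjusted p = 0.974). HIF1A was lower with the hairpin in both ranges of libraries, and at 49.6 and 36.8 FPKM in C13* shCEBPB.

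**Figure D5:**
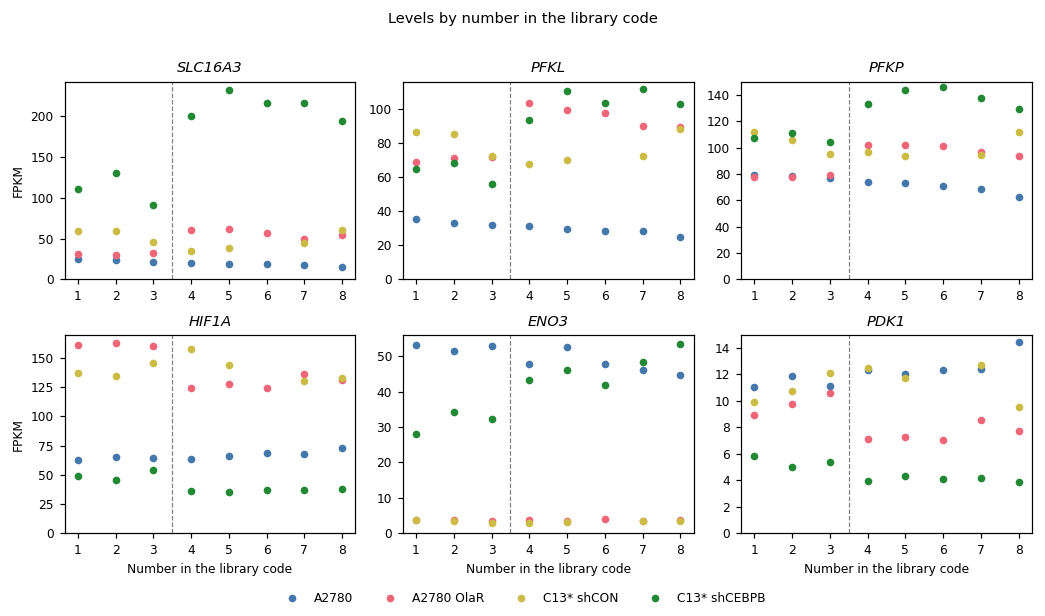
FPKM (vertical axes, linear from 0) of 6 members against the number in the library code (horizontal axis), with 1 colour per group and a dashed line between libraries 3 and 4. In C13* shCEBPB, SLC16A3 lies at 91.8 to 131 FPKM left of the line and at 195 to 232 FPKM right of it, while HIF1A lies at 45.6 to 53.9 FPKM left of it and at 35.0 to 38.0 FPKM right of it.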

How the data were processed

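The authors prepared RNA libraries, read paired ends, aligned reads to hg38 with TopHat, counted them per gene with HTSeq and deposited FPKM values per gene. FastQC, TopHat and edgeR are named in the submitters' processing notes. How the FPKM were made, the annotation and the use of strand are not given in the sources used here. Of 19225 rows, 4 with 2 repeated symbols were left out. Each comparison was fitted with limma 3.58.1 (R 4.3.3, empirical Bayes with trend) on log2(FPKM + 1) of its 2 groups, over genes that reached 1 FPKM in a number of libraries equal to the smaller group's size. P-values are two-sided and adjusted by Benjamini-Hochberg over all genes tested. FPKM are not counts, so the exact count test of the study was not used. All members, and at most the 3 largest non-overlapping rises and falls of each wider list, were named. Members and lists were chosen with earlier results of these data known. FPKM give no read counts, so depth was judged only relative to other libraries. The script was tested on simulated data. Gene positions came from GENCODE 44. Of the members, 16 have pseudogenes named after them and 18 overlap exons of a gene on the other strand, where reads may be shared. Alternatives were the pseudocount (0.1), the filter (none, or 5 FPKM), 3 other scalings, a fit of all 4 groups, a replicate block and library subsets. Leaving out C13* shCON replicate 1 was chosen after seeing the data. A result on an item withheld for evaluation is not reported here.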

Additional observations from a re-analysis of the deposited data

Results flagged for a closer look

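In 8 of 148 sets of values (37 members in 4 groups), the highest or lowest library lay further from its neighbour than Dixon's 95% limit allows on the log2(FPKM + 1) scale. Chance alone flags about 1 in 20 sets. A2780 replicate 8 was lowest in HK1 (13.4 FPKM, next 15.4, gap over range 0.546) and highest in LDHB (629 FPKM, next 586, 0.568) and PDK1 (14.4 FPKM, next 12.4, 0.567). C13* shCON replicate 6 was highest in PGK1 (230 FPKM, next 223, 0.697) and LDHB (507 FPKM, next 486, 0.629). C13* shCON replicate 4 was lowest in PKM (628 FPKM, next 661, 0.63) and ADM (48.6 FPKM, next 53.8, 0.63). C13* shCON replicate 2 was highest in ANKRD37 (2.42 FPKM, next 1.75, 0.569).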

How the results depend on the processing

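In C13* shCEBPB against C13* shCON, 27 of 36 members kept direction and call in the alternatives that tested them, and in A2780 OlaR against A2780, 35 of 37. The filter of 5 FPKM tested 31 and 34 of them. In C13* shCEBPB against A2780, 31 of 36 members kept both, and in C13* shCON against A2780 OlaR only 17 of 35. Members called higher in C13* shCON against A2780 OlaR numbered 15. They numbered 14 with 5 FPKM, 17 without the filter and with a common sum, and 20 in libraries 1 to 3. Direction turned for PFKL with libraries 1 to 3 (-0.36 with the hairpin, and 0.20 in C13* shCON against A2780 OlaR), PFKP in A2780 OlaR with libraries 1 to 3 (-0.00), HIF1A (-0.21, libraries 1 to 3) and SLC16A3 (-0.36, libraries 4 to 8) in C13* shCON against A2780 OlaR, and PFKFB3 (0.10) and CA12 (0.07) in C13* shCEBPB against A2780 under quantile normalization. The cause was not tested. With the hairpin, P4HA1 lost its call with median ratio scaling and in libraries 1 to 3, LOX with quantile normalization and in libraries 1 to 3, PFKP and NDRG1 in libraries 1 to 3, and VEGFA in libraries 4 to 8. PFKFB4 in A2780 OlaR lost it in libraries 1 to 3. With the hairpin, calls were gained by HK1 (quantile normalization -0.20, adjusted p = 9.08e-05, and libraries 1 to 3), TPI1 (quantile normalization), SLC16A1 (libraries 1 to 3) and PFKL (libraries 4 to 8). In C13* shCEBPB against A2780, ENO3 lost its call with median ratio scaling and in libraries 4 to 8, and ALDOC with a common sum, quantile normalization, the replicate block and both library subsets. Fewer samples enter the library subsets. Requiring also a 2-fold difference left 5 members higher and 6 lower (3539 genes in all) with the hairpin, 15 and 5 (4446 genes) in A2780 OlaR against A2780, 0 and 0 (68 genes) in C13* shCON against A2780 OlaR, and 13 and 5 (4710 genes) in C13* shCEBPB against A2780. Members called lower in C13* shCON against A2780 OlaR numbered 1, and 0 without the filter, with 5 FPKM, with a common sum, in a fit of all 4 groups and with the replicate block, 2 with median ratio scaling, 4 with quantile normalization, 3 in libraries 1 to 3 and 6 in libraries 4 to 8. Replicate numbers did not pair the libraries (mean correlation of same-numbered deviations -0.148 to -0.261), and with the replicate block 13 members were higher and 19 lower with the hairpin. The block gave 26 and 11 in A2780 OlaR against A2780, and 22 and 11 in C13* shCEBPB against A2780. Without C13* shCON replicate 1 the counts were 13 and 19 with the hairpin. With FPKM only, the depth behind low values is unknown.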
